A study of Prunus persica with 84 samples.

Results

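The genes described here are those whose transcript level in peach (Prunus persica) floral buds was lower in the genotype KV021779 (LP) than in the genotype John Boy (JB) at every time at which both were sampled. They were chosen on the RNA-seq levels themselves. For each gene, the mean level of 3 libraries was taken per group in CPM, the gene's counts per 1000000 counted reads of the library. A gene was kept when JB + 0.5 CPM was at least 2 times LP + 0.5 CPM at all 13 shared times. A stretch of 68 genes on chromosome 2 was left out by its identifiers, and 7 of its genes meet the same rule. This gave 102 genes of 26879 in the table, of which 25932 had a read. With the stretch included, 0.42% of the genes with a read met the rule, and the opposite rule (LP at least 2 times JB at all 13 times, stretch left out) also gave 102 genes. Because the difference between LP and JB at these times chose the genes, it is given below as a description, with no test.

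Shoots bearing floral buds had been cut from both genotypes and stood in water. LP shoots were held at 4 °C and sampled at 0, 100, 200, 400, 600, 800 and 1000 h, then moved to 22 °C and sampled at 1, 4, 8, 12, 16, 20, 24 and 28 d. JB shoots had the same chilling times and were sampled at 22 °C at 1, 4, 8, 12, 16 and 20 d. Warmth was continued until buds began to open, which per the labels took 28 d in LP and 20 d in JB, so equal days at 22 °C are not equal distances from bloom. Each of the 28 groups had 3 libraries, 45 of LP and 39 of JB, and all of the warmed shoots had first had the full chilling. Totals ran from 8823829 to 16989188 counts per library in LP and from 8021919 to 26346177 in JB. The labels do not say whether libraries of a group came from separate trees, so p-values measure the spread between these libraries, which may be technical. LP warm 28 d replicate 3 and JB warm 12 d replicate 3 stood furthest from the other libraries of their groups, with mean correlations across genes of 0.988 and 0.983.

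Flower buds of peach and other temperate fruit trees pass the winter in dormancy, a state in which warmth alone does not bring growth. A genotype-dependent amount of cold releases them, and warmth afterwards drives growth of the flower parts towards bloom. Transcript levels in such buds change strongly along this path. The files give gene identifiers and no names, so no role is given to any gene here and the floral bud markers were not checked. In whole buds, fewer cells of a type and less RNA per cell cannot be told apart.

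Most of the 102 genes had hardly any reads in LP. The median of their mean CPM over the 13 shared times was 0.164 in LP and 7.90 in JB. In LP, 46 genes averaged under 0.1 CPM, 29 averaged 0.1 to 1 CPM, 21 averaged 1 to 5 CPM and 6 averaged over 5 CPM. In JB the 46 genes under 0.1 CPM in LP ran from 0.991 to 70.3 CPM. Together the 102 genes took 0.00710% to 0.0389% of the counts of an LP library and 0.119% to 0.179% of those of a JB library. CPM are not divided by gene length, so values of different genes are not compared as levels. All 102 passed the filter on low counts, a step that genes well covered in JB pass whatever their count in LP.

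No read was assigned in any of the 45 LP libraries for 9 of the genes, and 4 more had 1 to 3 reads in all. Of these 13 genes, PRUPE_8G008700 and PRUPE_2G180600 had the highest mean CPM in JB. PRUPE_8G008700 had 3 reads over all LP libraries. At 1 d of warmth it stood at 0, 0.0589 and 0 CPM in LP and at 125, 126 and 133 CPM in JB, and at 0 h at 0, 0 and 0.0613 CPM in LP and at 68.7, 69.2 and 63.0 CPM in JB. Its JB level moved widely, from a lowest group mean of 14.6 CPM at 100 h to a highest of 128 CPM at 1 d, while LP showed single reads. PRUPE_2G180600 had no read in LP and stood at 38.5, 36.7 and 39.01 CPM in JB at 0 h. Set against a floor of 3 counts over the 39 LP libraries of the shared times, its level pooled over those times was at least 1787-fold lower in LP. The floor covers counting error only, and a count of 0 says that no read was assigned to that gene model, not that the gene has no transcript.

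PRUPE_2G045300 and PRUPE_4G020200 had the highest mean CPM in JB. PRUPE_2G045300 averaged 0.983 CPM in LP and 152 CPM in JB over the 13 times. At 0 h its libraries were at 0.206, 0.432 and 0.368 CPM in LP and at 274, 269 and 225 CPM in JB. The groups were far from overlapping, and the LP level was not flat: its group means ran from 0.0228 CPM at 1000 h to 3.0 CPM at 100 h. PRUPE_4G020200 had 7 reads over all LP libraries. In JB it held a nearly even level, with group means from 51.0 CPM at 4 d to 83.2 CPM at 400 h, and at 20 d its libraries were at 0, 0.0913 and 0 CPM in LP and at 68.4, 69.4 and 70.3 CPM in JB.

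Other members kept a clear level in LP. PRUPE_1G527200 had the highest mean in LP of the 102, with 19.0 CPM in LP and 65.2 CPM in JB. At 1000 h its libraries were at 11.7, 13.6 and 9.45 CPM in LP and at 32.8, 38.9 and 39.4 CPM in JB. At 20 d they were at 30.0, 26.9 and 29.6 CPM in LP and at 65.8, 56.6 and 60.7 CPM in JB. LP lay under JB in all libraries at both times, with a much smaller ratio than in the genes near 0.

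**Figure D1:**
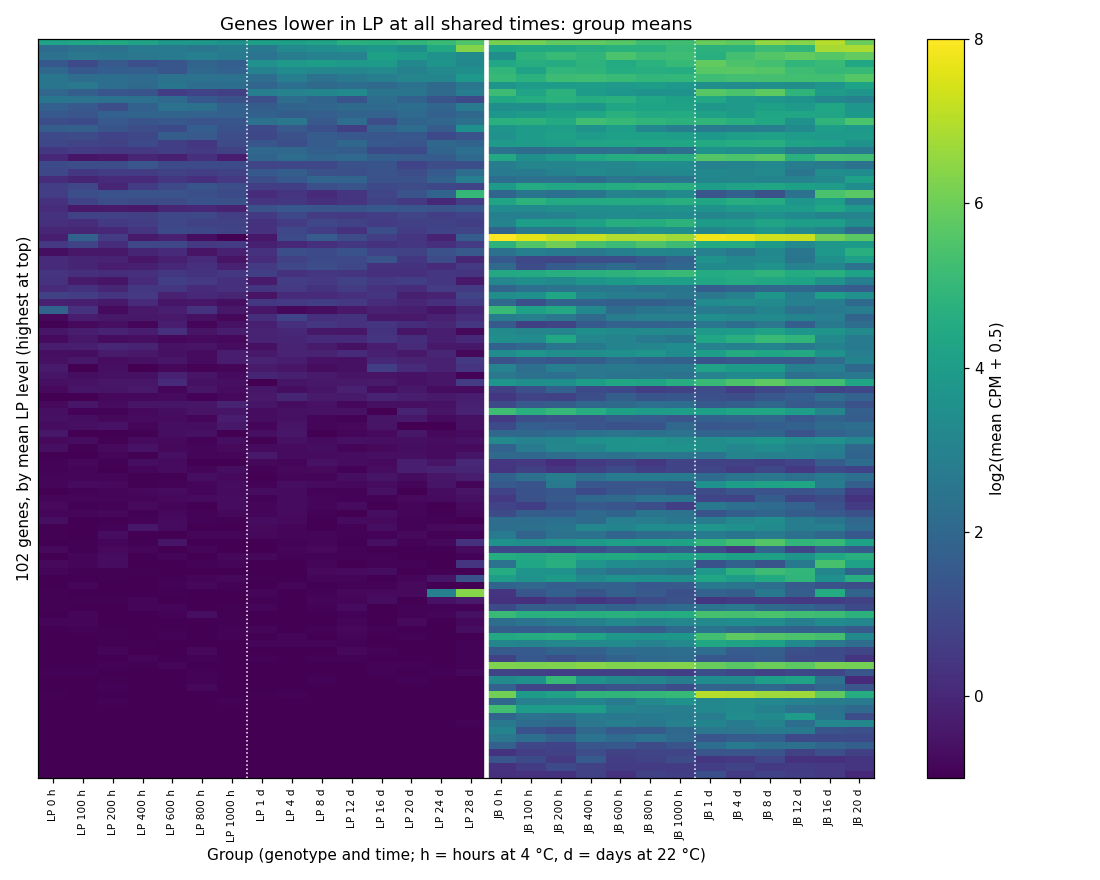
Group mean levels of the 102 genes (rows, ordered by mean LP level) in 15 LP groups (left) and 13 JB groups (right), as log2(mean CPM + 0.5), with dotted lines at the move to 22 °C. The lower rows are at or near 0 CPM throughout LP and cover a wide range of levels in JB, and PRUPE_2G004500 is the dark row that turns light at LP 24 d and 28 d.

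The smallest of a gene's 13 ratios, JB over LP on CPM + 0.5, had a median of 3.73 over the members. It was at least 4 for 48 members, at least 8 for 19 and under 2.5 for 28. For 34 members the smallest ratio fell at 20 d, the last shared time, and for 14 at 0 h. Among genes with a JB mean of at least 5 CPM, PRUPE_6G324200 lay just inside the rule with 2.00 at 16 d and PRUPE_3G178100 with 2.01 at 200 h. PRUPE_4G157700 lay just outside with 1.999 at 20 d and PRUPE_7G027400 with 1.96 at 20 d. At 16 d PRUPE_6G324200 had 3.57, 5.65 and 3.19 CPM in LP and 8.22, 9.35 and 8.76 CPM in JB. At 20 d PRUPE_4G157700 had 2.13, 2.74 and 2.78 CPM in LP and 4.89, 6.08 and 5.82 CPM in JB. Genes on either side of the threshold thus looked alike at these times.

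Single libraries kept the order. In all 102 genes, the 3 LP libraries lay below the 3 JB libraries at each of the 13 times, which held for 0.887% of all genes with a read; the rule used these values, so nothing is read from that count. When the genes were chosen on 2 of the 3 replicate numbers, 102, 102 and 95 genes were found, and in the replicate left out 83 of 102 (81.4%), 84 of 102 (82.4%) and 82 of 95 (86.3%) met the whole rule. Of all genes with a read, 0.344% to 0.363% met it in a single replicate. Every gene so chosen was lower in LP than in JB at all 13 times in the replicate left out. The labels do not say whether libraries of a group came from separate trees, so this covers these libraries only. The other members' libraries fell short of 2-fold at 1 time or more.

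The median gap was widest at 1000 h of chilling and narrowest at 20 d of warmth. The median over members of log2(LP over JB), on CPM + 0.5, was -2.67 at 0 h and -3.06 at 1000 h of chilling. During warmth it was -3.02 at 1 d, -2.96 at 8 d and -2.41 at 20 d. The summed CPM of the 102 genes lay between 78.8 and 87.3 in LP during chilling and between 1228 and 1366 in JB. At 1 d of warmth the sum was 109 ± 3.58 in LP and 1660 ± 23.6 in JB (SD, n = 3 each). From 4 d to 20 d it stayed between 136 and 153 in LP, while in JB it was highest at 8 d with 1771 ± 26.1 and stood at 1232 ± 27.5 at 20 d. The libraries of the 2 genotypes were far apart in this sum at every shared time, as the rule that chose the genes fixed in advance.

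The 24 d and 28 d groups exist for LP alone and were not used to choose the genes. They were set beside JB at 20 d, the last JB time, as a description, since this JB group helped to choose the genes. At 24 d, 97 of the 102 genes were at least 2-fold lower in LP, a size met by 12.2% of all genes with a read. At 28 d, 92 of the 102 were at least 2-fold lower in LP, a size met by 6.72% of all genes. Leaving out LP warm 28 d replicate 3 gave 91. The median log2(LP over JB at 20 d) was -2.40 for LP at 24 d and -2.20 for LP at 28 d. At each of these times 101 of the 102 genes were lower in LP than in JB at 20 d, whatever the size, and the exception was the same gene, PRUPE_2G004500.

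PRUPE_2G004500 was near 0 in LP up to 20 d and then the highest of all its groups at LP 28 d. It had 76.7, 84.5 and 83.1 CPM at LP 28 d and 6.23, 6.23 and 8.70 CPM at LP 24 d, and no LP library up to 20 d was over 0.213 CPM. JB had 3.20, 2.69 and 3.68 CPM at 20 d and a highest group at 16 d, with 21.5, 22.1 and 25.2 CPM. All LP libraries at 28 d were thus above every JB library, the reverse of the order at the 13 shared times. Of the summed member CPM of 379 ± 11.3 at LP 28 d, against 169 ± 14.9 at LP 24 d (SD, n = 3 each), 297 remained at 28 d without this gene.

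The other LP levels nearest to JB at 20 d, among genes with at least 5 CPM there, were those of PRUPE_7G215500 and PRUPE_1G527200. PRUPE_7G215500 had 13.9, 12.7 and 6.76 CPM at LP 28 d and 13.6, 13.7 and 12.97 CPM at JB 20 d. Its groups overlapped, and replicate 3, the LP 28 d library that stands apart, was the lowest. PRUPE_1G527200 had 44.8, 43.4 and 47.0 CPM at LP 28 d and 65.8, 56.6 and 60.7 CPM at JB 20 d, with no overlap. At the other end stood PRUPE_8G008700 with no read at LP 28 d and 20.4, 24.4 and 25.8 CPM at JB 20 d, at least 234-fold lower in LP against a floor of 3 counts over the 3 LP libraries. PRUPE_4G020200 had 0.0937, 0 and 0 CPM at LP 28 d and 68.4, 69.4 and 70.3 CPM at JB 20 d. Compared with its own highest mean at the shared times, LP at 28 d was at least 2 times higher for 6 of the 102 genes (5.88%), near the 5.22% of all genes with a read.

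**Figure D2:**
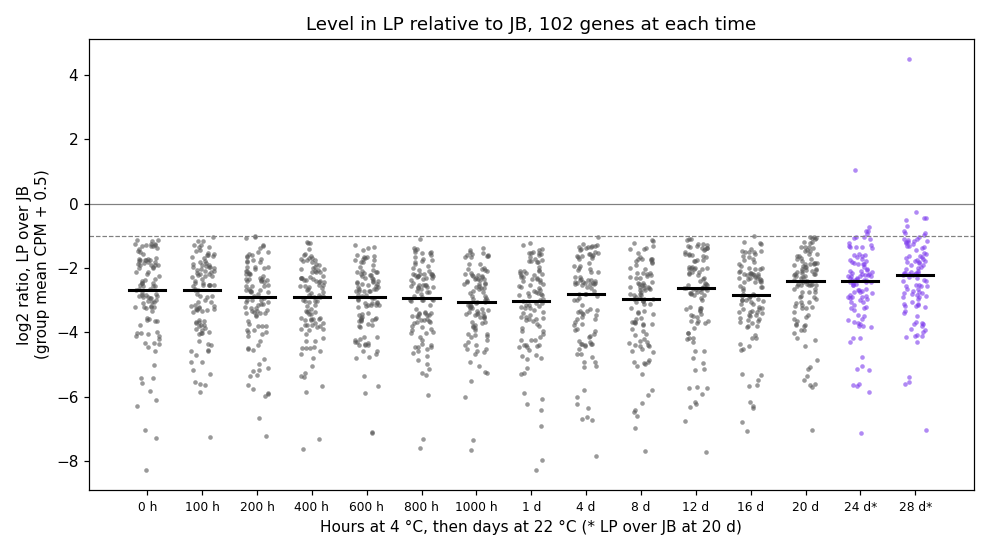
Log2 ratio of LP over JB group means (CPM + 0.5) for the 102 genes at 13 shared times (grey) and for LP at 24 d and 28 d over JB at 20 d (purple). Points are genes, bars are medians, and the dashed line is the 2-fold threshold. Grey points lie under that line by the rule; of the purple points, PRUPE_2G004500 alone is above 0 at 24 d and at 28 d.

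The rule did not use the direction of change with chilling or warmth within a genotype. It did use the levels at 0 h, 1000 h and 20 d, so counts of called members there are a description. LP at 28 d against 24 d lies outside the rule. Changes were tested over all 21168 genes that passed the filter, with edgeR's quasi-likelihood test and Benjamini-Hochberg adjustment. A call is an adjusted p under 0.05 with at least a 2-fold change. Many members had few reads in LP, called or not: 53 of the 102 genes had under 10 counts over the 6 libraries of the LP chilling comparison, 48 in the LP comparison at 20 d and 43 in that of 28 d against 24 d, while no gene did in the JB comparisons. No read at all was counted for 17, 19 and 15 of the genes in these LP comparisons, taken in the same order, and recovery of changes at such counts was not tested.

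Chilling moved members in both directions. In LP, 1000 h against 0 h, 4 of the 102 genes were higher (background 5.75% of tested genes) and 8 were lower (background 11.5%). In JB, 15 of the 102 were higher (background 8.52%) and 13 were lower (background 12.5%). The median log2 change of the members was 0 in LP and 0.16 in JB, and the median of all tested genes was 0 in both. Of the genes called in JB, 2 of the 15 higher and 4 of the 13 lower were called the same way in LP, and none the opposite way. The matching share over all tested genes was not computed, and 53 of the 102 had under 10 LP counts here. Nothing is read from this overlap. Without a fold minimum the JB counts were 30 higher (background 29.5%) and 27 lower (background 31.8%). The LP counts moved with single replicate numbers, to 2 higher and 4 lower without replicate 2 and to 2 higher and 6 lower without replicate 3. With only the LP groups compared in the fit they were 2 higher and 3 lower, beside 1019 and 2105 over all genes of that fit.

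PRUPE_6G324200 fell in LP, with 1.59, 2.37 and 1.58 CPM at 1000 h and 5.76, 5.08 and 4.60 CPM at 0 h. The groups did not overlap, and the fitted log2 change was -1.56 ± 0.19 (SE, adjusted p = 5.79e-11, edgeR). In JB the same gene had 16.7, 15.6 and 17.9 CPM at 1000 h and 19.6, 20.5 and 21.5 CPM at 0 h, under 2-fold apart. It was the 1 member with at least 5 CPM in LP at either time that was called there.

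In JB the largest falls with chilling were in PRUPE_I005500 and PRUPE_2G180600. PRUPE_I005500, on an unplaced scaffold by its identifier, had 5.21, 4.93 and 5.73 CPM at JB 1000 h and 35.0, 38.2 and 29.3 CPM at JB 0 h, a log2 change of -2.94 ± 0.18 (SE, adjusted p = 5.67e-24, edgeR). Its LP libraries, at 0.596, 0 and 0.137 CPM at 1000 h and 4.11, 3.24 and 2.15 CPM at 0 h, also did not overlap. PRUPE_2G180600 had 5.72, 7.05 and 7.27 CPM at JB 1000 h and 38.5, 36.7 and 39.01 CPM at JB 0 h, a log2 change of -2.77 ± 0.16 (SE, adjusted p = 1.90e-18, edgeR). It has no LP read, so it could show no change there.

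The largest rises with chilling in JB were in PRUPE_6G206700 and PRUPE_8G034500. PRUPE_6G206700 had 4.91, 5.40 and 4.71 CPM at JB 1000 h and 1.05, 0.924 and 0.719 CPM at JB 0 h, a log2 change of 2.20 ± 0.35 (SE, adjusted p = 1.01e-07, edgeR). PRUPE_8G034500 had 15.2, 11.2 and 8.60 CPM at JB 1000 h and 2.80, 2.36 and 3.90 CPM at JB 0 h, a log2 change of 1.69 ± 0.23 (SE, adjusted p = 1.21e-09, edgeR). In neither gene did the JB groups overlap, and in LP both stayed at or under 0.184 CPM at these times.

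With warmth, PRUPE_6G016700 and PRUPE_2G044800 rose in LP, and PRUPE_8G192600 and PRUPE_3G178100 rose and PRUPE_2G160500 and PRUPE_6G206700 fell in JB. In LP, 20 d against 1000 h, 17 of the 102 genes were higher (background 17.3%) and 3 were lower (background 9.20%). In JB, 12 were higher (background 22.2%) and 19 were lower (background 16.1%). The share of members higher in LP was near the background, and all tested genes in LP likewise had more higher calls (3653) than lower ones (1947). The median log2 change of the members was 0.22 in LP and -0.20 in JB, while that of all tested genes was 0.02 in LP and -0.03 in JB. Of the 12 genes higher in JB, 3 were also higher in LP, and of the 19 lower in JB, 1 was also lower in LP. The matching share over all tested genes was not computed, and 48 of the 102 had under 10 LP counts here, so nothing is read from this overlap. Without a fold minimum the JB counts were 24 higher (background 37.2%) and 40 lower (background 37.9%). With only the LP groups in the fit, the LP counts were 7 higher and 1 lower, beside 3038 and 1725 over all genes of that fit. The low-count filter was run again in that fit, so not all of the 102 need have been tested.

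PRUPE_6G016700 and PRUPE_2G044800 had the largest rises in LP among genes with at least 5 CPM. PRUPE_6G016700 had 5.06, 4.47 and 5.74 CPM at LP 20 d and 1.09, 1.52 and 0.754 CPM at LP 1000 h, a log2 change of 2.07 ± 0.26 (SE, adjusted p = 7.39e-11, edgeR). In JB it was level between these times, at 13.2, 12.2 and 12.0 CPM at 20 d and 11.1, 11.6 and 12.6 CPM at 1000 h, with a log2 change of 0.22 ± 0.15 (SE, adjusted p = 0.168, edgeR). In between it had a high stretch in both genotypes, with 7.13, 7.0 and 6.23 CPM in LP at 1 d and 47.2, 48.8 and 53.8 CPM in JB at 1 d.

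PRUPE_2G044800 had 8.97, 8.86 and 8.34 CPM at LP 20 d and 2.98, 2.47 and 2.67 CPM at LP 1000 h, a log2 change of 1.54 ± 0.18 (SE, adjusted p = 1.55e-11, edgeR). In JB it had 22.1, 20.1 and 19.3 CPM at 20 d and 34.1, 29.7 and 33.6 CPM at 1000 h. Neither pair of groups overlapped, with the warmed libraries above the chilled ones in LP and under them in JB, where the log2 change was -0.52 ± 0.12 (SE, adjusted p = 4.63e-05, edgeR) and short of 2-fold.

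In JB the largest rises with warmth were in PRUPE_8G192600 and PRUPE_3G178100. PRUPE_8G192600 had 53.8, 49.0 and 51.7 CPM at JB 20 d and 8.48, 9.63 and 9.42 CPM at JB 1000 h, a log2 change of 2.63 ± 0.17 (SE, adjusted p = 2.09e-22, edgeR). PRUPE_3G178100 had 14.3, 17.0 and 17.5 CPM at JB 20 d and 2.15, 3.88 and 3.28 CPM at JB 1000 h, a log2 change of 2.53 ± 0.20 (SE, adjusted p = 1.35e-18, edgeR). PRUPE_3G178100 rose in LP as well, from far fewer reads, with 0.444, 1.10 and 1.11 CPM at LP 20 d and 0.298, 0 and 0.274 CPM at LP 1000 h (log2 change 1.95 ± 0.52, SE, adjusted p = 8.60e-04, edgeR).

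The largest falls with warmth in JB were in PRUPE_2G160500 and PRUPE_6G206700. PRUPE_2G160500 had 0.711, 0.521 and 0.511 CPM at JB 20 d and 5.11, 6.11 and 8.19 CPM at JB 1000 h, a log2 change of -3.31 ± 0.33 (SE, adjusted p = 1.61e-12, edgeR). It had been at 20.6, 19.9 and 12.0 CPM at JB 12 d, and in LP no library was over 0.0954 CPM. PRUPE_6G206700, which had risen with chilling, had 0.889, 0.782 and 0.613 CPM at JB 20 d and 4.91, 5.40 and 4.71 CPM at JB 1000 h, a log2 change of -2.55 ± 0.35 (SE, adjusted p = 1.66e-09, edgeR).

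Late in the LP course, at 28 d against 24 d, 14 of the 102 genes were higher (background 11.1%) and 4 were lower (background 8.27%). The median log2 change was 0.38 over the members and -0.01 over all tested genes. PRUPE_2G004500, with the values given above, rose by 3.42 ± 0.16 on the log2 scale (SE, adjusted p = 4.93e-26, edgeR). PRUPE_8G192600 had 28.8, 29.1 and 37.1 CPM at LP 28 d and 3.15, 3.63 and 2.81 CPM at LP 24 d, a log2 change of 3.20 ± 0.20 (SE, adjusted p = 8.01e-23, edgeR). In JB this gene was already at 43.3, 41.2 and 40.7 CPM at 16 d. The counts were 9 higher and 2 lower without replicate 1 and 12 higher and 2 lower without replicate 3. Without LP warm 28 d replicate 3 alone they were 14 higher and 3 lower. With only the groups compared in the fit they were 8 higher and 1 lower, beside 1969 and 1413 over all genes of that fit.

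**Figure D3:**
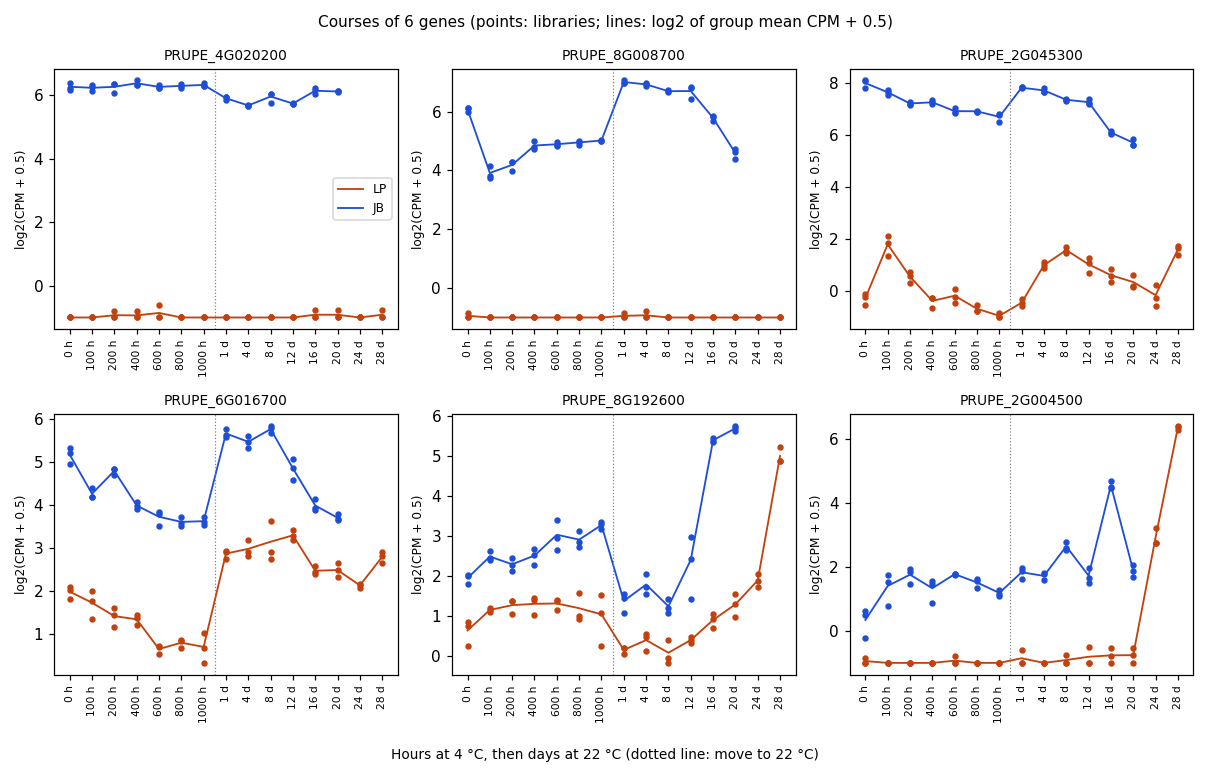
Courses of 6 genes in LP (orange) and JB (blue), as log2(CPM + 0.5), with points for libraries and lines through group means; times are hours at 4 °C, then days at 22 °C after the dotted line. PRUPE_4G020200 and PRUPE_8G008700 are at or near 0 CPM in LP throughout, PRUPE_6G016700 goes up at 1 d of warmth in both genotypes, and PRUPE_8G192600 and PRUPE_2G004500 go up late in LP.

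The change in LP minus the change in JB equals the LP to JB ratio at the later time over that at the earlier time, and the rule chose the genes on those ratios. So the differences below are a description, with no test, and nothing is read from counts of calls. In the edgeR fit across all genes, the chilling difference was called higher in LP for 1 of the 102 genes (background 2.99%) and lower for 5 (background 3.95%). The warmth difference was called higher in LP for 15 (background 15.3%) and lower for 4 (background 13.2%).

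For chilling, PRUPE_6G226600 had 2.09, 1.90 and 1.64 CPM at LP 1000 h and 0.754, 0.540 and 0.859 CPM at LP 0 h, beside 20.4, 25.3 and 27.6 CPM at JB 1000 h and 18.3, 21.1 and 16.7 CPM at JB 0 h. PRUPE_2G000500 had 6.75, 5.22 and 5.96 CPM at LP 1000 h and 5.14, 4.32 and 4.29 CPM at LP 0 h, beside 49.3, 28.1 and 31.5 CPM at JB 1000 h and 9.27, 8.62 and 14.3 CPM at JB 0 h. The fitted log2 difference, LP minus JB, was 1.10 ± 0.31 for the first and -1.21 ± 0.33 for the second (SE). PRUPE_2G028000 had a difference of -2.77 ± 0.87 (SE), with 0.0993, 0.190 and 0.0685 CPM at LP 1000 h and 0.411, 0.432 and 0.0613 CPM at LP 0 h, beside 12.6, 8.81 and 8.50 CPM at JB 1000 h and 2.10, 3.08 and 3.80 CPM at JB 0 h. Its LP groups overlapped and its JB groups did not. Without replicate 1 the differences were 0.91, -0.84 and -1.85 for PRUPE_6G226600, PRUPE_2G000500 and PRUPE_2G028000.

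For warmth, PRUPE_2G045300 had 1.07, 0.639 and 0.649 CPM at LP 20 d and 0, 0 and 0.0685 CPM at LP 1000 h, beside 57.9, 48.4 and 49.2 CPM at JB 20 d and 89.7, 111 and 110 CPM at JB 1000 h. LP at 1000 h held 1 read of this gene, and the LP ratio of 20 d over 1000 h was 27.7 with a 95% counting interval of 4.56 to 1137. PRUPE_6G165500 likewise had 2 reads at LP 1000 h. It stood at 0.178, 1.00 and 0.556 CPM at LP 20 d and 0, 0.0949 and 0.0685 CPM at LP 1000 h, beside 3.91, 2.87 and 4.09 CPM at JB 20 d and 5.83, 5.76 and 5.53 CPM at JB 1000 h. Its LP ratio was 10.1 with a 95% counting interval of 2.44 to 89.7. In both genes the LP libraries were higher at 20 d and the JB libraries lower, with fitted log2 differences of 5.11 ± 0.79 for PRUPE_2G045300 and 3.52 ± 0.79 for PRUPE_6G165500 (SE).

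PRUPE_8G192600 had 1.95, 1.46 and 2.41 CPM at LP 20 d and 1.59, 2.37 and 0.685 CPM at LP 1000 h, beside the JB values given above, a log2 difference of -2.37 ± 0.40 (SE). Its LP level was 31.7 ± 4.72 CPM at 28 d (SD, n = 3). PRUPE_2G161400 had 0.711, 0.183 and 0.185 CPM at LP 20 d and 0.298, 0.569 and 0.480 CPM at LP 1000 h, beside 11.3, 11.9 and 10.4 CPM at JB 20 d and 4.70, 5.29 and 5.94 CPM at JB 1000 h, a log2 difference of -1.67 ± 0.61 (SE). Its LP groups overlapped and its JB groups did not.

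**Figure D4:**
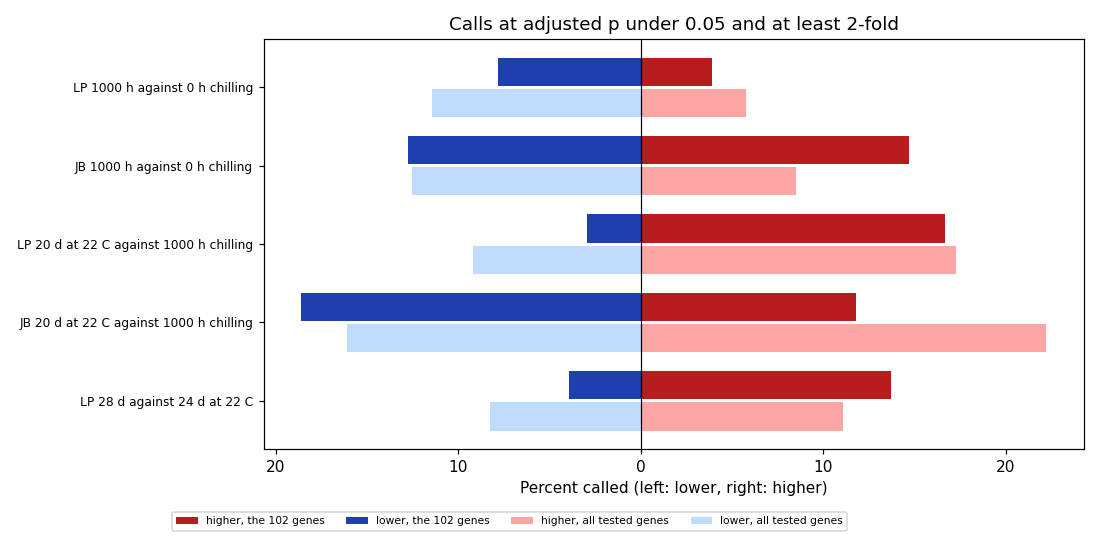
Share of genes called in each of the 5 comparisons within a genotype (edgeR, adjusted p under 0.05 and at least 2-fold), in percent, with higher to the right and lower to the left, for the 102 genes (dark) and all 21168 tested genes (pale). In LP at 20 d, 17 of the 102 genes are called higher and 3 lower; in JB at 20 d, 12 are called higher and 19 lower.

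Within JB the range of the members' levels is given as a description, since the rule used these levels. Among the 69 members with a JB mean of at least 5 CPM, the log2 range over the 13 group means had a median of 1.75, against 1.33 over the 15252 genes at that level, and 14 of the 69 (20.3%) ranged under 2-fold, against 29.8% of those genes. Their highest JB group was 8 d for 17 of the 69 (24.6%), against 9.48% of those genes. PRUPE_2G033900 is 1 of these, with 4.60, 2.67 and 2.62 CPM in LP at 8 d and 55.9, 46.5 and 49.4 CPM in JB at 8 d. For the 27 members with at least 1 CPM in both genotypes, the LP and JB courses over the 13 times had a median correlation of 0.56, against 0.57 over 17590 genes; the points are group means and share the same libraries for all genes.

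By the chromosome and number in their identifiers, the members were unevenly spread. Chromosome 2 held 37 of the 102 genes (36.3%), with 12.1% of the genes with a read, and this is without the stretch left out. Chromosome 5 held none among 2398 genes, and chromosome 1 held 3 among 5680. The other members were 16 on chromosome 3, 11 on chromosome 4, 18 on chromosome 6, 4 on chromosome 7, 12 on chromosome 8 and 1 unplaced. When the genes of chromosome 2 were cut by identifier into 3 parts of equal number, the first held 26 members, the middle 11 and the last 0. Of the 102 genes chosen by the opposite rule, 28 lay on chromosome 2, more than on any other chromosome, and 6 lay on chromosome 5.

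**Figure D5:**
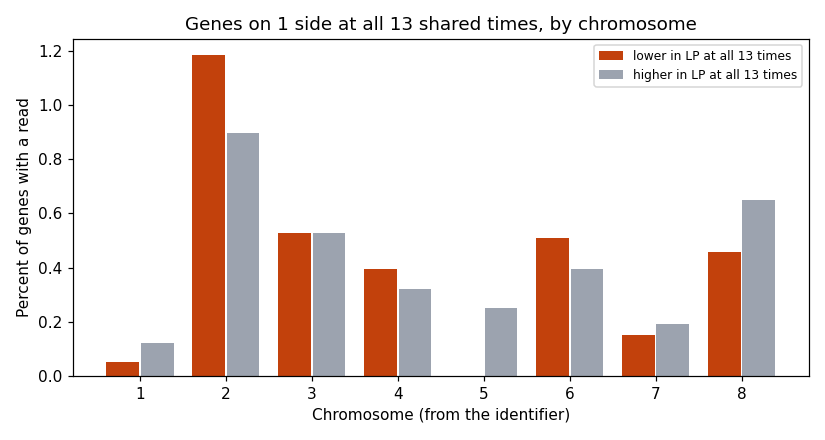
Genes lower in LP at all 13 shared times (orange) and genes higher in LP at all 13 (grey), as a percent of the genes with a read on each of the 8 chromosomes, the stretch on chromosome 2 left out. Chromosome 2 has the highest share in both sets, 1.19% and 0.897%, and chromosome 5 has no gene of the first set.

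Members often sat next to each other. Of the 102, 26 lay next to another member in identifier order (25.5%, against 0.735% of all genes), in 13 pairs with no longer run. Within 10 gene models of another member lay 50 of the 102 (49.0%, against 5.49% of all genes). In the pair PRUPE_2G033800 and PRUPE_2G033900, LP had 0.444, 0.822 and 0.649 CPM of the first and 2.13, 3.11 and 2.32 CPM of the second at 20 d, and JB had 4.09, 4.17 and 4.19 CPM and 34.3, 37.8 and 38.8 CPM. In the pair PRUPE_2G078200 and PRUPE_2G078300, LP had 0.711, 0.731 and 0.556 CPM of the first and 2.93, 4.66 and 3.71 CPM of the second at 20 d, and JB had 16.7, 19.4 and 19.0 CPM and 11.6, 14.1 and 14.6 CPM. The JB courses within the 13 pairs had a median correlation of 0.813 (range -0.509 to 0.985) over 13 group means, against 0.144 for 14160 neighbouring pairs of genes. The strand setting of the counting is not given in the sources used here, so reads of neighbouring or overlapping models, and of antisense partners, cannot be told apart.

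Among 95 neighbours that are not members and had at least 1 CPM in a genotype, the median log2 difference, LP minus JB, was -0.04. Of these, 14 were at least 2-fold lower in LP (14.7%) and 8 at least 2-fold higher (8.42%), against 7.08% and 1.81% of all 19016 genes at that level. In 3 places a member lay next to a gene of the opposite rule (2.94% of the members, against 0.727% of all genes). They are named here because they are all such cases. Beside PRUPE_2G045300, PRUPE_2G045200 averaged 19.0 CPM in LP and 0.284 CPM in JB. Beside PRUPE_3G066200, which had no LP read in the shared groups and 6.50 CPM in JB, PRUPE_3G066100 averaged 3.86 CPM in LP and 0.0526 CPM in JB. Beside PRUPE_8G074500, with 1.93 CPM in LP and 15.3 CPM in JB, PRUPE_8G074400 averaged 58.6 CPM in LP and 1.01 CPM in JB. In each place the order of the genotypes was reversed from 1 gene model to the next.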

How the data were processed

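Floral buds of both genotypes were analysed in 84 RNA-seq libraries. Per the labels' protocols, RNA extraction used a Norgen kit and library preparation a TruSeq Stranded mRNA kit. FastQC 0.11.9, Trimmomatic, STAR 2.6.0 and edgeR are named in the submitters' processing notes. The values deposited by the authors are raw counts, whole numbers for 26879 gene models. Build, annotation and counting tool, and whether strand was used, were not given in the sources used here. Columns were matched to samples by name, reading the number in chilling columns as hours divided by 100.

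CPM here are counts divided by the column total. Tests used edgeR 4.0.16 in R 4.3.3 (TMM scaling, filterByExpr, quasi-likelihood fit of 28 group means, 56 residual degrees of freedom), with Benjamini-Hochberg adjustment over 21168 genes; fitted changes are TMM-scaled and can differ from CPM ratios. The biological coefficient of variation was 7.66%. In data simulated for JB 1000 h against 0 h with the common dispersion, changes were put into well-counted genes only. Of these, 99 of 100 changed 2-fold and 100 of 100 changed 4-fold had an adjusted p under 0.05 (edgeR), with no fold minimum. The median absolute log2 change fitted for the 2-fold genes was 1.003, so the 2-fold minimum of a call would miss many of them. Among 18510 genes tested there was 1 false call with that minimum. Replicates of a group differed beyond counting noise in all 84 pairs (chi-square per degree of freedom 1.39 to 23.3). No reference table matched the identifiers, so no names or sequences are given.

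The members, comparisons and named genes were chosen with earlier results of these data known. Named are the members with the highest JB mean, with at most 3 LP counts, nearest the threshold, with the largest called changes (at least 5 CPM in a group), with extreme LP 28 d to JB 20 d ratios, and in the longest runs. Alternatives were other scaling, filters, pseudocounts and thresholds, DESeq2 1.42.0, a replicate block and replicates left out.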

Additional observations from a re-analysis of the deposited data

How the results depend on the processing

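The number of genes that met the rule was 175 at 1.5-fold and 63 at 3-fold. It was 152 with a pseudocount of 0.1 CPM, 79 with 1 CPM, 99 with group medians, 101 with TMM-scaled totals (99 shared with the 102) and 102 without JB warm 12 d replicate 3 (101 shared). Without a fold minimum, JB calls were 30 higher and 27 lower with chilling and 24 higher and 40 lower with warmth. With only the groups compared in the fit, LP calls were 2 higher and 3 lower with chilling, 7 higher and 1 lower at 20 d and 8 higher and 1 lower at 28 d against 24 d. With replicates left out in turn, LP calls ranged from 2 to 3 higher and 4 to 8 lower with chilling, and from 9 to 14 higher and 2 to 5 lower at 28 d against 24 d. Calls of the LP minus JB chilling difference, which uses the ratios that chose the genes, were then 0 to 1 higher and 2 to 4 lower. Fits with replicates left out or with only the groups compared held fewer libraries. The low-count filter was run again in each, so the number of the 102 genes tested can differ. The causes of these moves were not tested. The other counts stayed within 1.5 times their values, and no named gene reversed. In 6 results of named genes the call was lost with a replicate number left out, all of them LP minus JB differences. Without replicate 2 the chilling difference of PRUPE_6G226600 was 0.88 and the warmth difference of PRUPE_2G161400 was -1.13. Without replicate 3 that of PRUPE_2G161400 was -1.51.

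The replicate numbers did not pair the samples: correlations of same-numbered deviations ran from -0.167 to 0.0662. With the replicate number as a block, JB chilling calls were 14 higher and 13 lower, and the other counts were 4 and 8 for LP chilling, 17 and 3 for LP at 20 d, 12 and 19 for JB at 20 d, 14 and 4 for LP 28 d against 24 d, 1 and 5 for the chilling difference and 15 and 4 for the warmth difference. In LP, 53 of the genes had under 10 counts over the 6 libraries of the chilling comparison.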
